A study of Mus musculus with 24 samples.

Results

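The Kruppel-like factors are transcription factors named for the fly gene Kruppel. The 8 described here were Klf2, Klf3, Klf4, Klf6, Klf7, Klf9, Klf10 and Klf13, and a probe belonged to a member where its gene name on the array equalled that symbol. They were 8 of 21597 gene symbols on the array, read by 14 of 34850 named probes, and all 8 were among the 17347 genes tested.

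Kruppel-like factors end in zinc fingers that bind GC-rich and CACCC-containing DNA, and their other parts recruit different partners. Klf2, Klf4, Klf6 and Klf7 carry activation domains, Klf3 binds the corepressor CtBP, and Klf9, Klf10 and Klf13 bind the corepressor Sin3. In macrophages Klf2 and Klf4 are known for their part in inflammatory activation and polarization, and in lymphocytes Klf2 is known for maintaining quiescence and trafficking.

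RNA came from C57BL/6 mouse cells of 3 types: elicited peritoneal macrophages (EPM), taken by lavage after thioglycollate injection, bone marrow-derived macrophages (BMDM), grown in medium with M-CSF, and resting splenic B cells, isolated by depletion of cells that carry CD43 or CD11b. Each type was treated with Kdo2 lipid A (KLA), a ligand of the receptor TLR4, for 1 or 12 h. The 12 h controls received DMSO. The early control of BMDM is labelled DMSO for 1 h, whereas those of EPM and B cells are labelled untreated. Every condition was hybridised on 1 Agilent 2-colour array whose Cy3 and Cy5 channels held 2 biological replicates, so condition and array cannot be told apart, and p-values measure the spread between the channels of an array. Each cell type had its own slide, so cell type and slide cannot be told apart. Values are log2 normalized intensities, differences are on the log2 scale, and all p-values are from limma, adjusted by the method of Benjamini and Hochberg over all genes tested, with 0.05 as the threshold.

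In 2 B cell arrays the sources disagreed before any result was computed. The column of the authors' table for B cell DMSO 12 h was closest to the scanner channels labelled KLA 1 h (r = 0.983 across probes, against -0.822 for its own array), and the column for KLA 1 h was closest to the channels labelled DMSO 12 h (r = 0.986). The other 10 columns were each closest to their own array. B cell results are therefore given with the scanner labels as deposited and with those 2 labels exchanged. Macrophage markers were well above background for 10 of 10 genes in EPM and BMDM and B cell markers for 8 of 8 in B cells, whereas 5 to 6 of 10 macrophage markers were so in B cells. B cell markers were so for 5 to 7 of 8 genes in EPM and 5 to 6 in BMDM. T cell markers were so for 3 to 6 of 8 genes over the 3 cell types. The share of probes well above background lay between 57.45% and 64.95% per channel, no spot of a member was saturated, and the probe used for each member was well above background in all 24 channels.

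The promoters of 4 members are shown because these members gave the main contrasts below: Klf6 and Klf7 at 1 h, Klf9 between macrophage types and Klf3 at 12 h in BMDM. Each sequence runs from 250 bases before to 50 after the gene start in RefSeq on GRCm38.p6, 5′ to 3′ on the strand of the gene, and capitals mark the GC box GGGCGG and the motif CACCC on either strand, which can overlap. The windows are chr13:5861239-5861538 on the plus strand for Klf6, chr1:64121340-64121639 on the minus strand for Klf7, chr19:23140976-23141275 on the plus strand for Klf9 and chr5:64803271-64803570 on the plus strand for Klf3.
Klf6: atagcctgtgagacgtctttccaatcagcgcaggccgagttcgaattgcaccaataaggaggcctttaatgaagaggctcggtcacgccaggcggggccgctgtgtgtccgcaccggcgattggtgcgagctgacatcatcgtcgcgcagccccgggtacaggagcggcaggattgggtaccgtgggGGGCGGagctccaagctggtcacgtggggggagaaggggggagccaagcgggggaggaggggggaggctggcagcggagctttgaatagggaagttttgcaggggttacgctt
Klf7: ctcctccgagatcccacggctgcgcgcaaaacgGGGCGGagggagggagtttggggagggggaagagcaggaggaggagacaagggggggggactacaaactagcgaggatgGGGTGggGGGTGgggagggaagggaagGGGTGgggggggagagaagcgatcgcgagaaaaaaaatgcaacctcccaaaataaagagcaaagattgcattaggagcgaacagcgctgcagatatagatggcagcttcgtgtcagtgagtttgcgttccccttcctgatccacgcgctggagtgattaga
Klf9: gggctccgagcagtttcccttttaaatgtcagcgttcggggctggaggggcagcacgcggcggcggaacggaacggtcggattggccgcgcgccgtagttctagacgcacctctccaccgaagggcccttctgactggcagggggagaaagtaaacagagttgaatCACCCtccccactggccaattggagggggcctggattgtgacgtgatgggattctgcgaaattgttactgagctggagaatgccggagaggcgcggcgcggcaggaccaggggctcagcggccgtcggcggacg
Klf3: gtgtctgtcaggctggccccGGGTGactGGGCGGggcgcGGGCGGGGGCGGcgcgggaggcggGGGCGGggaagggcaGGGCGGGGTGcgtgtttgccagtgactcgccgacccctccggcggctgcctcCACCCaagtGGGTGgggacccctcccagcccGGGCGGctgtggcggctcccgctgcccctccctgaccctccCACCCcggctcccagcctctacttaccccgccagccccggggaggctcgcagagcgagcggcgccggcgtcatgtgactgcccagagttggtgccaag
A promoter was at hand for 7 of the 8 members, all but Klf10. Their GC content ran from 58.3% to 76.7%, against a median of 52.7% over 32851 promoters of the same length. The GC box was found in 6 of the 7, against 35.7% of all promoters, and CACCC in 5 of the 7, against 57.5%. Klf3 held 6 GC boxes and 5 CACCC matches, Klf7 held 1 and 3, Klf6 held 1 and 0, and Klf9 held 0 and 1. An NF-kB consensus motif, searched on both strands, was in none of the 7 and in 1.63% of all promoters, and TATAAA was in none of the 7 and in 13.6% of all. The cyclic AMP response element TGACGTCA was in 1.79% of all promoters and in none of the members, and the serum response element was in 0.0639% and in none. A match is a description of these letters and not a site.

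The probes lie on the mm8 build that the scanner files use, and their placement in exons or UTRs was not analysed here. Klf6 was read by A_51_P451346 at chr13:5869371-5869430, Klf7 by A_51_P405280 at chr1:64013046-64013105, and Klf3 by A_51_P492640, whose listed span is chr5:65101464-65102044. Klf9 was read by A_52_P675996 at chr19:23231944-23232003, Klf10 by A_51_P347547 at chr15:38239377-38239436, and Klf4 by A_51_P213544 at chr4:55549061-55549120. Klf13 was read by A_51_P341169, whose listed span is chr7:63770693-63816921. Klf2 had 2 probes, A_52_P442031 at chr8:75248851-75248910, which was the brighter and stands for the gene in the counts, and A_51_P144264 at chr8:75250227-75250286.

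KLA for 1 h raised Klf6 and Klf7 and lowered Klf10 in both macrophage types. The early controls of EPM and B cells are labelled untreated, with no time. In their 1 h comparisons KLA, DMSO and time therefore cannot be told apart. In EPM 5 of the 8 members passed the test, 2 higher and 3 lower, where 9.39% of all genes were called higher and 19.7% lower. That count takes Klf2 by its brighter probe, which did not pass. With the mean of its probes Klf2 changed by 1.08 in EPM (limma adjusted p = 3.9e-07). In BMDM 3 members passed, 2 higher and 1 lower, against 11% and 17.6% of all genes. The median change of the members was -0.21 in EPM and -0.06 in BMDM, beside -0.05 and -0.03 over all genes. In BMDM 5 of 8 neutrophil markers were higher and 0 lower at 1 h, with a median of 0.54, and 3 of 5 fibroblast markers were higher, with a median of 0.29, while in EPM 2 neutrophil markers were higher and 1 lower and no fibroblast marker passed. Their part in the 1 h changes was not tested.

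Klf6, an activator that is induced early by growth and stress signals, had the largest 1 h change among the probes used for the members in BMDM and in EPM. Paired values here and below are in the order Cy3, Cy5. Its level in EPM was 13.98 and 14.09 untreated, 15.51 and 15.38 after KLA for 1 h, 13.98 and 14.04 after DMSO for 12 h and 14.24 and 14.20 after KLA for 12 h. In BMDM it was 13.90 and 13.93 after DMSO for 1 h, 15.52 and 15.75 after KLA for 1 h, 13.94 and 14.03 after DMSO for 12 h and 15.21 and 15.41 after KLA for 12 h. The KLA channels lay above their controls in each of these 4 comparisons, and in BMDM both KLA times stood more than 1 log2 unit above both controls. Klf6 rose 2.66-fold in EPM (1.41, SE 0.08, limma adjusted p = 1.23e-10) and 3.29-fold in BMDM (1.72, SE 0.08, adjusted p = 6.32e-12) at 1 h. At 12 h it rose by 0.22 in EPM (adjusted p = 0.0285), a call lost without 1 of 3 channels (0.18 without the Cy3 channel of DMSO 12 h, and 0.23 and 0.20 without the Cy5 or the Cy3 channel of KLA 12 h), and 2.50-fold in BMDM (1.32, adjusted p = 4.04e-11). The second Klf6 probe, A_51_P503162, gave 1.67, 0.45, 1.90 and 1.01 in the same 4 comparisons, taken as EPM 1 h, EPM 12 h, BMDM 1 h and BMDM 12 h.

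Klf7, an activator first described as ubiquitous and known for roles in neurons and fat cells, moved with Klf6 at 1 h. Its level in EPM was 10.47 and 10.44 untreated, 11.76 and 11.81 after KLA for 1 h, 10.03 and 9.84 after DMSO for 12 h and 9.64 and 9.67 after KLA for 12 h. BMDM held 10.19 and 9.99 after DMSO for 1 h, 11.47 and 11.41 after KLA for 1 h, 9.70 and 9.69 after DMSO for 12 h and 10.09 and 10.21 after KLA for 12 h. The 1 h KLA channels were the highest of each macrophage type, and at 12 h the KLA channels lay below control in EPM and above it in BMDM. At 1 h Klf7 rose 2.51-fold in EPM (1.33, SE 0.07, adjusted p = 1.02e-10) and 2.55-fold in BMDM (1.35, adjusted p = 7.33e-11), and the difference between those rises was -0.02 (95% interval -0.24 to 0.20). At 12 h it fell by 0.28 in EPM (adjusted p = 0.00316) and rose by 0.46 in BMDM (adjusted p = 2.23e-05). The fall in EPM was -0.19 (adjusted p = 0.0775) without the Cy3 channel of DMSO 12 h and -0.17 (adjusted p = 0.0615) without normalization between arrays, a setting under which the rise in BMDM was also lost (0.16, adjusted p = 0.0654). The second Klf7 probe, A_52_P239424, changed in the same directions, by 1.53, -0.60, 1.36 and 0.48.

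Klf10, a Sin3-binding repressor known as an early target of TGF-beta, went the other way. Its level in EPM was 11.99 and 11.95 untreated, 10.94 and 11 after KLA for 1 h, 11.37 and 11.33 after DMSO for 12 h and 11.04 and 11.04 after KLA for 12 h. The BMDM channels read 12.60 and 12.55 after DMSO for 1 h, 11.30 and 11.33 after KLA for 1 h, 11.04 and 10.97 after DMSO for 12 h and 11.17 and 11.11 after KLA for 12 h. The early controls were the highest conditions in both macrophage types, with no overlap with the rest. Klf10 changed by -0.998 in EPM (SE 0.06, adjusted p = 1.61e-10) and by -1.26 in BMDM (SE 0.06, adjusted p = 4.9e-12), a 2.39-fold lower intensity, at 1 h. At 12 h it fell by 0.31 in EPM (adjusted p = 0.000124). In BMDM it rose by 0.13 at 12 h (adjusted p = 0.048), but this call was lost when any of 3 channels was left out (0.10 without the Cy5 channel of DMSO 12 h, 0.16 and 0.10 without the Cy5 or the Cy3 channel of KLA 12 h) and the value was -0.07 without normalization between arrays.

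**Figure D1:**
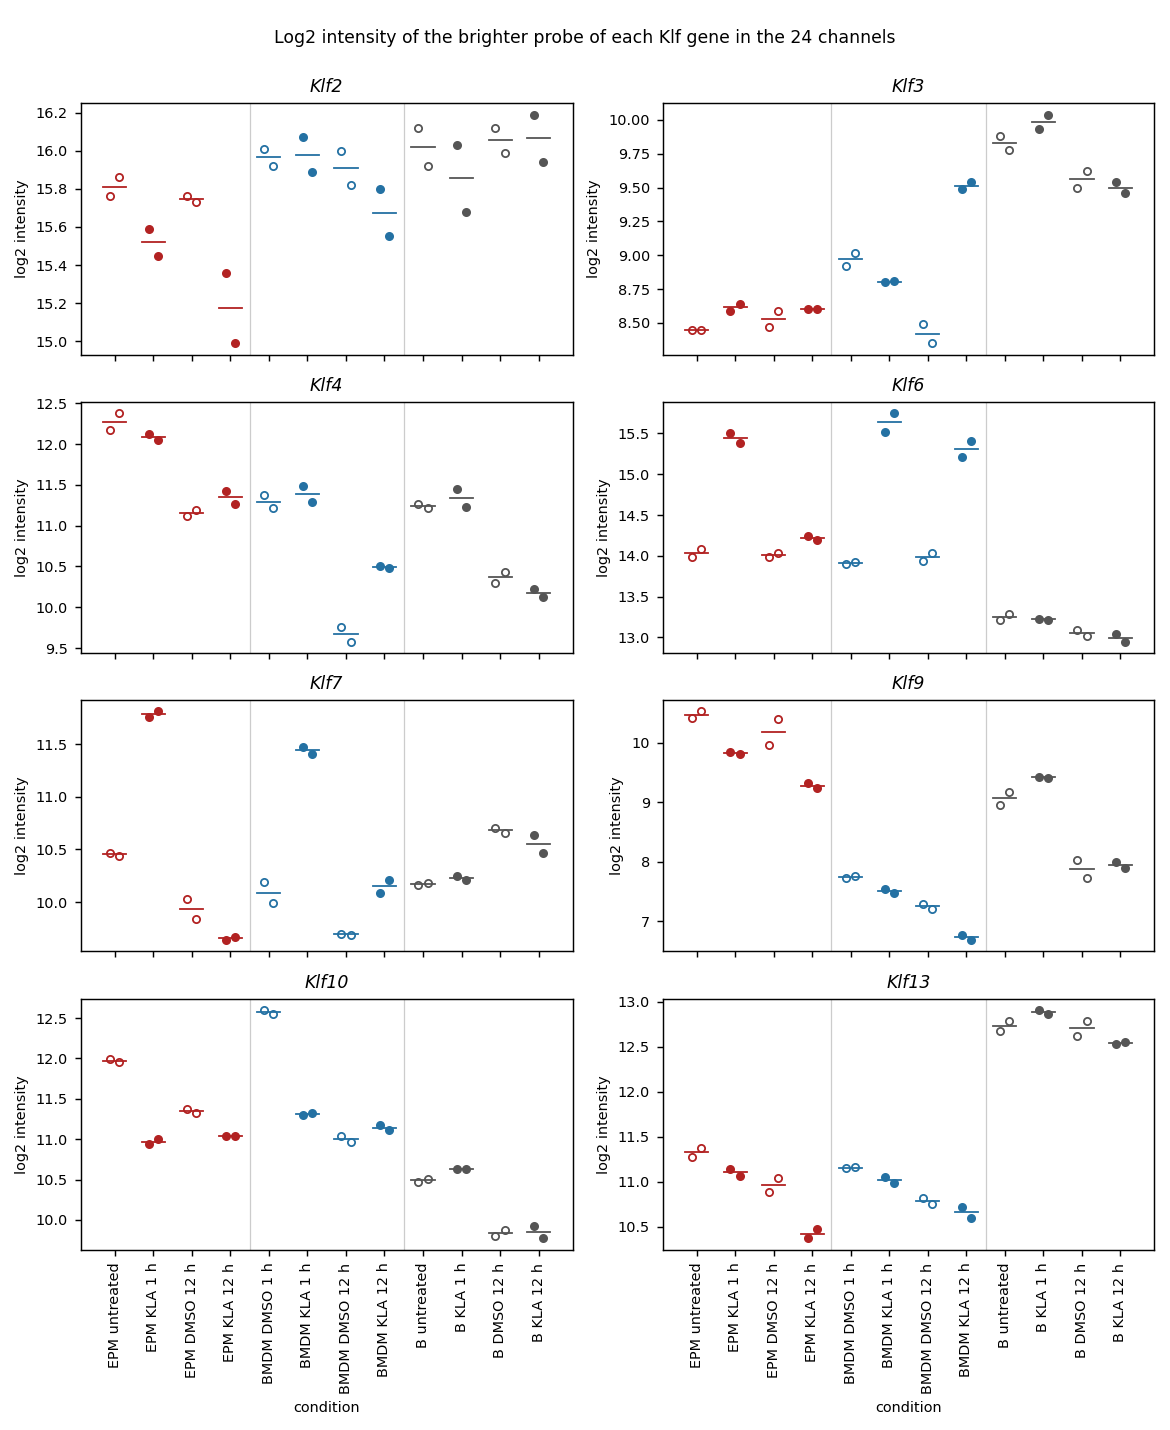
Level of each Kruppel-like factor (log2 normalized intensity, vertical axis, 1 panel per gene with its own scale) in the 12 conditions (horizontal axis), with EPM in red, BMDM in blue and B cells in grey. Filled points are KLA channels, open points are control channels and lines are the means of the 2 channels; in macrophages Klf6 and Klf7 stood highest after KLA for 1 h, and Klf10 stood highest in the early controls.

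The probes of Klf2 disagreed, and the choice between them set the result. Klf2 is an activator whose expression is known to be high in resting lymphocytes and endothelium. A_52_P442031 was bright in all conditions, from 14.99 to 16.19, whereas A_51_P144264 spanned 10.29 to 15.54. The condition means of A_52_P442031 spanned 0.89, with overlap at 9 of the 11 steps between neighbours. Those of A_51_P144264 spanned 5.15, with overlap at 5. Whether the high intensity of A_52_P442031 limited its range was not tested. Klf2 and Klf6 are both in the study's list of immediate and early genes, which was chosen on these EPM samples and is no independent evidence of their direction.

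With A_51_P144264, the level in EPM was 10.44 and 10.29 untreated, 12.91 and 12.72 after KLA for 1 h, 10.60 and 10.45 after DMSO for 12 h and 10.52 and 10.39 after KLA for 12 h. In BMDM it was 11.01 and 10.81 after DMSO for 1 h, 11.86 and 11.65 after KLA for 1 h, 11.88 and 11.78 after DMSO for 12 h and 11.45 and 11.41 after KLA for 12 h. The 1 h KLA channels of EPM stood apart from every other EPM channel, while those of BMDM overlapped with the 12 h control. In a fit over 30727 probes, this probe rose 5.46-fold at 1 h in EPM (2.45, SE 0.09, adjusted p = 2.68e-13), where 10.2% of all probes were called higher, and 1.79-fold in BMDM (0.84, adjusted p = 1.31e-06), where 10.2% were also called higher. The rise was larger in EPM than in BMDM by 1.61 (SE 0.13, adjusted p = 9.62e-08). At 12 h the difference from control was -0.07 in EPM (adjusted p = 0.566), and in BMDM the probe fell by 0.40 (adjusted p = 0.000958).

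With A_52_P442031, the level in EPM was 15.76 and 15.86 untreated, 15.59 and 15.45 after KLA for 1 h, 15.76 and 15.73 after DMSO for 12 h and 15.36 and 14.99 after KLA for 12 h. The KLA channels lay below their controls at both times. The 1 h difference was -0.29 in EPM (adjusted p = 0.109), which passed with the dye as a replicate block (adjusted p = 0.0043), and 0.02 in BMDM (adjusted p = 0.943). The labels name no pairing of replicates by dye. At 12 h this probe fell by 0.57 in EPM (adjusted p = 0.00122), or -0.32 (adjusted p = 0.0502) without normalization between arrays. In BMDM at 12 h it was -0.23 from control (adjusted p = 0.13, and 0.011 with the replicate block). With the mean of both probes the 1 h change of Klf2 in EPM was 1.08, of opposite sign.

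**Figure D2:**
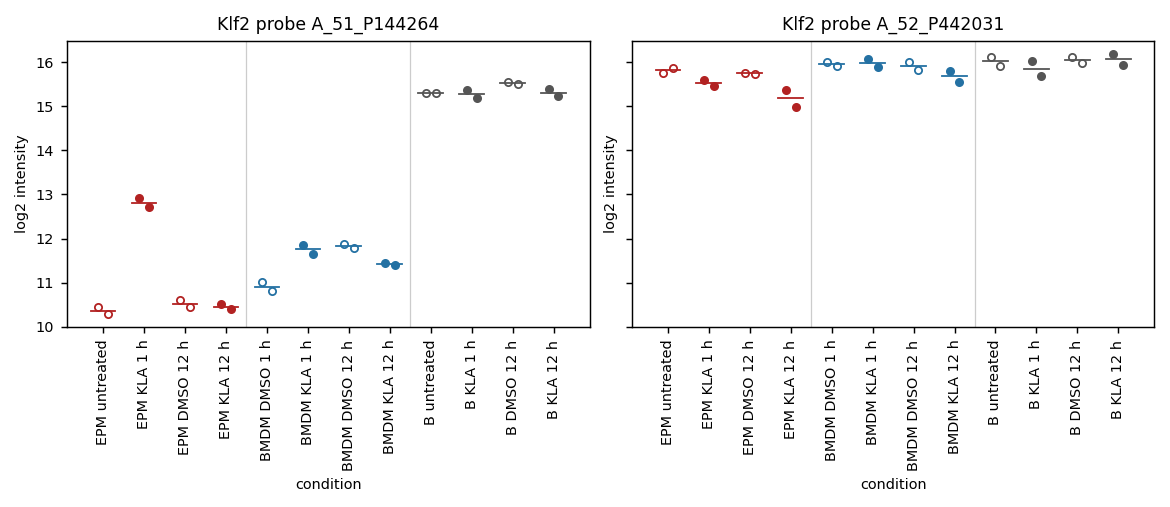
Level of Klf2 (log2 normalized intensity, vertical axis) by condition (horizontal axis) for its 2 probes, 1 panel each, with filled KLA points, open control points and a line at the mean of the 2 channels. A_51_P144264 rose from 10.37 to 12.82 on average after KLA for 1 h in EPM, while A_52_P442031 stayed between 14.99 and 16.19 in all conditions.

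Of the remaining activators, Klf4, known as a reprogramming factor and in monocyte differentiation, changed with KLA at 12 h in BMDM alone among the 4 macrophage comparisons. Its level in EPM was 12.17 and 12.38 untreated, 12.12 and 12.05 after KLA for 1 h, 11.12 and 11.19 after DMSO for 12 h and 11.43 and 11.27 after KLA for 12 h. Its BMDM levels were 11.37 and 11.22 after DMSO for 1 h, 11.49 and 11.29 after KLA for 1 h, 9.76 and 9.58 after DMSO for 12 h and 10.51 and 10.48 after KLA for 12 h. The early and the 12 h channels did not overlap in either type, whatever the treatment. Klf4 rose 1.77-fold over its 12 h control in BMDM (0.82, SE 0.09, adjusted p = 3.71e-07). The corresponding difference in EPM was 0.19 (adjusted p = 0.0929), which passed with the replicate block (adjusted p = 0.043) and without normalization between arrays (0.36, adjusted p = 0.00313).

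Klf3, the CtBP-binding repressor, also responded at 12 h in BMDM. Its level in BMDM was 8.92 and 9.02 after DMSO for 1 h, 8.80 and 8.81 after KLA for 1 h, 8.49 and 8.35 after DMSO for 12 h and 9.49 and 9.54 after KLA for 12 h. In EPM it was 8.45 and 8.45 untreated, 8.59 and 8.64 after KLA for 1 h, 8.47 and 8.59 after DMSO for 12 h and 8.60 and 8.60 after KLA for 12 h. The 12 h KLA channels of BMDM were higher than every other macrophage channel. Klf3 rose 2.14-fold there (1.10, SE 0.07, adjusted p = 4.02e-11), and its second probe, A_52_P462392, rose by 1.13 (adjusted p = 9.18e-12). At 1 h the differences were 0.17 in EPM (adjusted p = 0.0628) and -0.17 in BMDM (adjusted p = 0.0636), and with the replicate block both passed (adjusted p = 0.0344 and 0.0356). At 12 h in EPM the difference was 0.07 (adjusted p = 0.378), while the second probe rose by 0.29 (adjusted p = 0.000636).

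Klf9, a Sin3-binding factor known to respond to glucocorticoid and thyroid hormone, was lower after KLA. Its level in EPM was 10.42 and 10.53 untreated, 9.85 and 9.81 after KLA for 1 h, 9.96 and 10.41 after DMSO for 12 h and 9.32 and 9.24 after KLA for 12 h. In BMDM it was 7.73 and 7.76 after DMSO for 1 h, 7.54 and 7.47 after KLA for 1 h, 7.29 and 7.21 after DMSO for 12 h and 6.77 and 6.68 after KLA for 12 h. KLA channels lay below their controls in all 4 comparisons, and every EPM channel lay above every BMDM channel. In EPM Klf9 fell by 0.65 after 1 h (adjusted p = 0.000285), and after 12 h it fell by 0.91 (adjusted p = 2.03e-06). In BMDM the difference at 1 h was -0.24 (adjusted p = 0.136), and at 12 h it fell by 0.53 (adjusted p = 0.00057). The second Klf9 probe, A_51_P412200, was not well above background in either channel of BMDM KLA 12 h.

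Klf13, a Sin3-binding factor known as a regulator of the chemokine gene Ccl5 in lymphocytes, was lower after KLA in EPM. Its level in EPM was 11.28 and 11.38 untreated, 11.14 and 11.07 after KLA for 1 h, 10.89 and 11.04 after DMSO for 12 h and 10.37 and 10.47 after KLA for 12 h. The groups did not overlap at either time. Klf13 fell by 0.55 after 12 h of KLA (adjusted p = 3.09e-06), and after 1 h it fell by 0.23 (adjusted p = 0.0224). The 1 h call was lost without the Cy5 channel of KLA 1 h (-0.19, adjusted p = 0.161) or of the untreated array (-0.18, adjusted p = 0.179). In BMDM the differences were -0.14 at 1 h (adjusted p = 0.179) and -0.13 at 12 h (adjusted p = 0.133), and the latter passed without normalization between arrays (-0.40, adjusted p = 8.27e-05) and with the mean of probes (-0.16, adjusted p = 0.00168). The second Klf13 probe, A_52_P281659, was dim, well above background in 20 of 24 channels.

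At 12 h, 6 of the 8 members passed in EPM, 1 higher and 5 lower, where 19.6% of all genes were called higher and 34.3% lower. In BMDM 6 passed, 5 higher and 1 lower, against 28.6% and 36.3% of all genes. The median change of the members was -0.30 in EPM and 0.30 in BMDM, beside -0.06 and -0.03 over all genes. Without normalization between arrays the median over all genes at 12 h in BMDM moved by -0.14. Other cell markers moved in BMDM over the same comparison. The mean log2 intensity of 5 fibroblast markers was 9.17 in DMSO and 9.85 in KLA, with 3 of 5 higher and 0 lower, that of 8 neutrophil markers was 8.61 and 9.70, with 5 higher and 1 lower, and 3 of 4 endothelial markers tested were higher. In EPM 1 of 5 fibroblast markers was higher and 3 were lower at 12 h. Their part in the changes of the members was not tested, and in bulk RNA fewer cells of a type and less RNA per cell cannot be told apart.

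**Figure D3:**
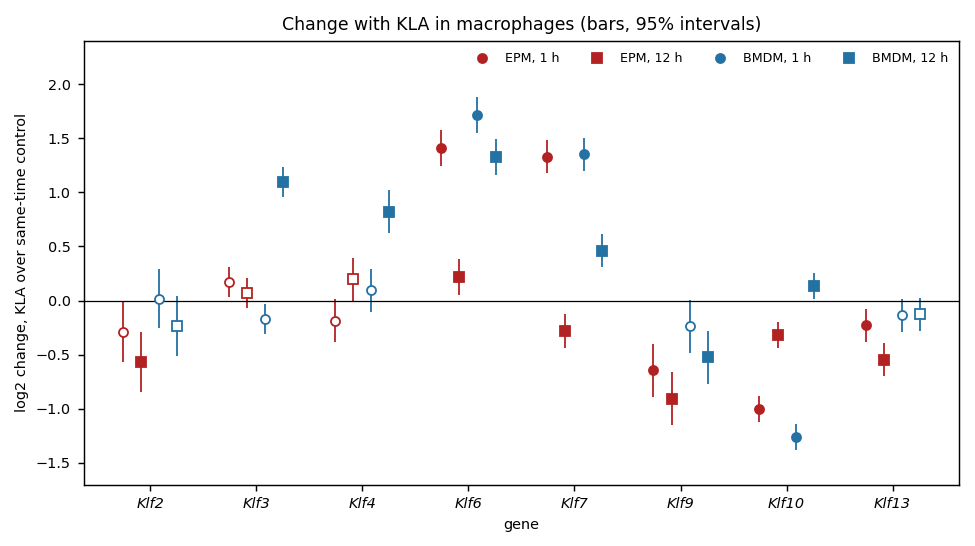
Change of each Kruppel-like factor with KLA (log2 KLA over control, vertical axis, with 95% intervals, by gene on the horizontal axis) in EPM and BMDM at 1 h (circles) and 12 h (squares), where filled symbols passed an adjusted p of 0.05 and open ones did not. The control of EPM at 1 h is labelled untreated, with no time. At 1 h Klf6 and Klf7 lay between 1.33 and 1.72 and Klf10 at -0.998 and -1.26, and at 12 h Klf3, Klf4, Klf6 and Klf7 lay higher in BMDM than in EPM.

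The spread behind these tests is that between 2 channels of an array. With the mean of the channels as 1 sample per array and the 2 control arrays of a cell type as 1 condition, Klf6 alone passed in EPM at 1 h (1.42, adjusted p = 0.021), Klf2 alone in EPM at 12 h (-0.60, adjusted p = 0.0287), and Klf6 alone in BMDM at 1 h (1.68, adjusted p = 0.0165) and 12 h (1.36, adjusted p = 0.00425). The shares of all genes called were then 0.951%, 11.6%, 0.571% and 21.1%. That fit has 1 array in each KLA arm, assumed to vary like the controls. It takes its spread from the early and 12 h controls, which differ for several members, so a lost call there does not speak of a smaller change. The Klf2 value in that fit is of A_52_P442031 alone, whereas A_51_P144264 averaged 10.53 after DMSO and 10.46 after KLA for 12 h in EPM. Klf7 was 1.59 in EPM (adjusted p = 0.166) and 1.55 in BMDM (adjusted p = 0.196) at 1 h, and at 12 h in BMDM Klf3 was 0.82 (adjusted p = 0.0853) and Klf4, whose controls differed by -1.62, was 0.01 (adjusted p = 0.998).

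The 1 h and 12 h responses of the members were compared with a test of the difference itself. In EPM 5 members differed, against 43.7% of all genes: the response of Klf7 was lower at 12 h by 1.61 (adjusted p = 4.02e-10) and that of Klf6 by 1.19 (adjusted p = 7.37e-08), and that of Klf10 was higher by 0.68 (adjusted p = 1.46e-06). Klf4 and Klf13 differed by 0.38 and -0.32, calls that were lost in 4 of the fits that left out 1 channel for each. In BMDM 5 differed, against 54.4%: Klf7 by -0.89, Klf6 by -0.39 (-0.19, adjusted p = 0.216, with the authors' values), Klf10 by 1.39 (adjusted p = 6.47e-11), Klf3 by 1.26 (adjusted p = 1.62e-09) and Klf4 by 0.73. These differences include the change of the controls. In BMDM Klf10 went from 12.57 to 11.01 in DMSO and from 11.32 to 11.14 with KLA. Klf4 went there from 11.3 to 9.67 in DMSO and from 11.39 to 10.49 with KLA. With array means as samples, the BMDM values were -0.17 for Klf10 and -0.90 for Klf4, and the EPM values 0.07 and -0.74.

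Between macrophage types, the 12 h response was lower in EPM than in BMDM for 6 members, and no member was higher, where 47.8% of all genes differed. The differences were -1.11 for Klf6 (adjusted p = 2.2e-07), -1.02 for Klf3 (adjusted p = 5.36e-08), -0.74 for Klf7, -0.63 for Klf4, -0.45 for Klf10 and -0.42 for Klf13. Without normalization between arrays 3 of these calls were lost: Klf4 was then -0.18, Klf10 -0.08 and Klf13 -0.04. At 1 h 1 member differed, Klf3 by 0.34 (adjusted p = 0.0255), against 9.56% of all genes, and this call was lost in 6 of the 8 fits that left out 1 channel. The 1 h difference of Klf6 was -0.31 (95% interval -0.54 to -0.07, adjusted p = 0.102, and 0.0373 with the replicate block), and that of Klf10 was 0.26 (adjusted p = 0.0511, and 0.0245 with the block).

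Without KLA, Klf9 separated the macrophage types. In the early controls it was 6.63-fold higher in EPM than in BMDM (2.73, SE 0.12, adjusted p = 3.1e-13), and in the 12 h controls 7.65-fold higher (2.94, adjusted p = 8.88e-14). The second Klf9 probe, A_51_P412200, averaged 9 in EPM and 6.69 in BMDM in the early controls, and 8.71 and 6.56 at 12 h. The lowest signals well above background in the BMDM DMSO 1 h channels were 6.09 and 6.05. Klf4 was higher in EPM by 0.98 in the early controls (adjusted p = 4.94e-08), and in the 12 h controls 2.80-fold higher (1.48, adjusted p = 1.12e-10). All 5 fibroblast markers were also higher in EPM in both comparisons, with a mean log2 intensity of 12.08 to 12.50 in EPM conditions and 8.95 to 9.85 in BMDM, and 3 of 4 endothelial markers were higher in both. All 8 neutrophil markers were lower in EPM in both, with medians of -1.66 and -1.62, and 7 of 10 macrophage markers were lower. The part of these markers in the differences was not tested. Of the 8 members, 6 differed in the early controls, 4 higher and 2 lower in EPM, against 57.8% of all genes, and 5 in the 12 h controls, all higher in EPM, against 56.9%. Klf3 and Klf10 were lower in EPM in the early controls, by -0.52 and -0.61. At 12 h the differences were 0.11 (adjusted p = 0.186) and 0.34 (adjusted p = 4.43e-05). The probes of Klf3 disagreed in sign at 12 h. Its second probe, A_52_P462392, read 8.32 in EPM and 8.75 in BMDM on average after DMSO for 12 h. With the mean of probes the 12 h difference of Klf3 was -0.17 (limma adjusted p = 0.0026). Klf7 was higher in EPM by 0.37 and 0.24, and the 12 h call was lost without the Cy3 channel of EPM DMSO 12 h (0.15, adjusted p = 0.156) and without normalization between arrays (0.11, adjusted p = 0.194). Klf6 differed by 0.12 (95% interval -0.05 to 0.29) and 0.02 (-0.14 to 0.19). Klf13 was higher by 0.17 (adjusted p = 0.0456) and 0.18 (adjusted p = 0.0394), calls that were lost in 3 fits each when 1 channel was left out.

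Culture for 12 h without KLA moved the members as well. In EPM 4 passed, all lower than in the early control, against 19.1% of all genes, and in BMDM 6 passed, all lower, against 23.2%. The change of Klf4 was -1.12 in EPM (adjusted p = 1.12e-07) and -1.62 in BMDM (adjusted p = 6.82e-10). That of Klf10 was -0.62 in EPM (adjusted p = 3.7e-07) and -1.57 in BMDM (adjusted p = 1.68e-12), a 2.96-fold lower level. Klf7 fell by 0.52 and 0.40, and Klf13 by 0.36 and 0.37. Klf3 and Klf9 fell in BMDM, by 0.55 and 0.50. The difference of Klf9 in EPM was -0.29 (adjusted p = 0.0936, and 0.0409 with the replicate block). The comparisons with KLA for 1 h and with DMSO for 12 h share the early control channels. The early EPM control is labelled untreated and the 12 h control DMSO, so time and DMSO cannot be told apart there. The second probe of Klf2 rose in BMDM by 0.92 (adjusted p = 9.47e-07), with 0.16 in EPM (adjusted p = 0.287).

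**Figure D4:**
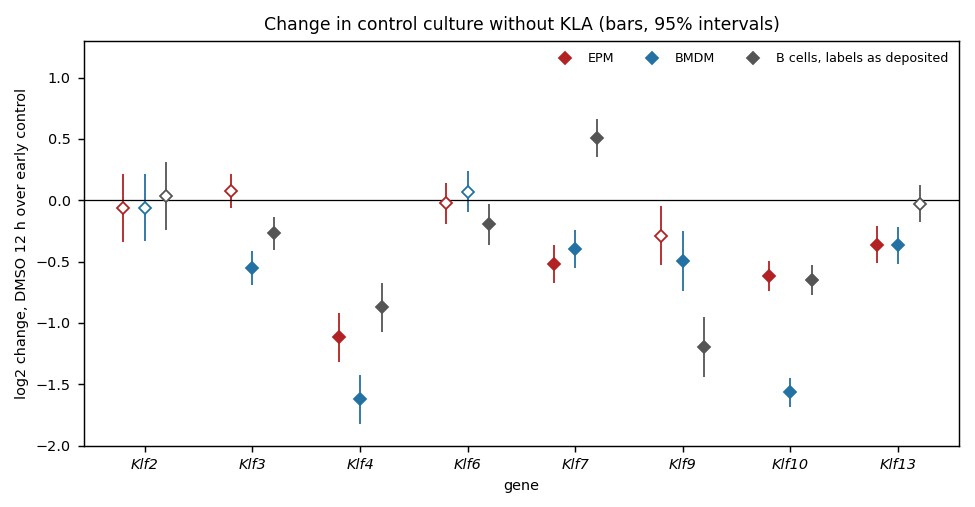
Change of each Kruppel-like factor between the 12 h DMSO control and the early control (log2 difference with 95% intervals, vertical axis, by gene on the horizontal axis) in EPM, BMDM and B cells with labels as deposited, where filled symbols passed an adjusted p of 0.05. Klf4 and Klf10 were lower at 12 h in all 3 cell types, with differences from -0.62 to -1.62.

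Across all 12 conditions, the member levels ordered differently for each gene, and neighbours in the order often overlapped. Klf9 ran from 6.72 in BMDM KLA 12 h to 10.47 in untreated EPM, with overlap at 2 of the 11 steps between neighbours. Klf13 ran from 10.42 in EPM KLA 12 h to 12.89 in B cells labelled KLA 1 h, with 2 overlaps, and Klf10 from 9.84 in B cells labelled DMSO 12 h to 12.57 in BMDM DMSO 1 h, with 4. Klf6 ran from 12.99 in B cells KLA 12 h to 15.63 in BMDM KLA 1 h, with 5 overlaps, and Klf7 from 9.65 in EPM KLA 12 h to 11.78 in EPM KLA 1 h, with 4. With the probe used, Klf3 ran from 8.42 in BMDM DMSO 12 h to 9.99 in B cells labelled KLA 1 h, with 4 overlaps. Its second probe, A_52_P462392, ran instead from 8.27 in B cells KLA 12 h to 9.88 in BMDM KLA 12 h. Klf4 ran from 9.67 in BMDM DMSO 12 h to 12.27 in untreated EPM, with 4 overlaps.

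Klf13 was higher and Klf10 and Klf6 lower in untreated B cells than in either macrophage control. Of the 8 members, 5 differed from BMDM, where 76.6% of all genes did, and 7 from EPM, where 77.2% did, so the counts are no result about the members. Erythroid markers were also higher in B cells, 3 of 3 tested, with medians of 4.11 and 4.13, and their part was not tested. Klf13 was 2.99-fold higher than in BMDM (1.58, adjusted p = 2.54e-13) and higher than in EPM by 1.40. Klf10 was lower by 2.08 than in BMDM (-2.08, adjusted p = 1.12e-16) and by 1.48 than in EPM (-1.48). Klf6 was lower in B cells (-0.66 and -0.78). Klf9 lay between the macrophage types, 1.32 above BMDM and -1.41 from EPM. Klf3 was higher by 0.86 than BMDM with the probe used, while A_52_P462392 gave -0.12 (adjusted p = 0.093), and against EPM the probes gave 1.38 and 0.62. Klf4 differed from EPM by -1.04 and from BMDM by -0.06 (95% interval -0.26 to 0.14), or -0.43 (adjusted p = 0.000381) without normalization between arrays.

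For Klf2 the probes again disagreed. A_51_P144264 read 15.29 and 15.29 in untreated B cells and was 20.8-fold higher there than in BMDM (4.38, adjusted p = 1.74e-18) and 30.3-fold higher than in EPM (4.92, adjusted p = 2.56e-19). A_52_P442031 read 16.12 and 15.92 and differed by 0.05 from BMDM (adjusted p = 0.721) and by 0.21 from EPM (adjusted p = 0.152, and 0.0173 with the replicate block).

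In B cells the response to KLA depended on the labels. With the labels as deposited, 0 of 8 members passed at 1 h by limma, where 2.72% of all genes were called higher and 2.45% lower, and 4 had an unadjusted p under 0.05 (Klf3, Klf9, Klf10 and Klf13), as had 19.2% of all genes. With the dye as a replicate block Klf9 passed at 1 h (0.36, adjusted p = 0.0264), and the genes called rose from 897 to 2406. The second Klf9 probe, A_51_P412200, averaged 7.75 untreated and 7.71 in the array labelled KLA 1 h. At 12 h 0 of 8 passed, against 2.81% and 2.48%, and 1 had an unadjusted p under 0.05 (Klf13), as had 16.8% of all genes. With the labels exchanged, 6 passed at 1 h, 1 higher and 5 lower, against 47.4% of all genes, and 7 at 12 h, 1 higher and 6 lower, against 49.1%. Klf6 read 13.21 and 13.29 untreated, 13.23 and 13.22 in the array labelled KLA 1 h, 13.09 and 13.02 in that labelled DMSO 12 h and 13.04 and 12.95 after KLA for 12 h. Its values spanned less than 0.4 log2 units, and it rose under neither set of labels: the 1 h difference was -0.02 as deposited and -0.20 (adjusted p = 0.0493) exchanged. Klf9 read 8.95 and 9.18 untreated, 9.43 and 9.41 in the array labelled KLA 1 h, 8.02 and 7.72 in that labelled DMSO 12 h and 7.99 and 7.90 after KLA for 12 h. The last 2 arrays stood below the first 2 without overlap. Its 1 h difference was 0.36 as deposited and -1.20 (adjusted p = 8.5e-08) exchanged, and its 12 h difference was 0.08 as deposited and -1.48 (adjusted p = 6.21e-09) exchanged.

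The culture comparison in B cells turned with the labels too. As deposited, 6 members differed between DMSO 12 h and untreated, 1 higher and 5 lower, against 47.4% of all genes: Klf9 by -1.20, Klf4 by -0.87, Klf10 by -0.65, Klf7 by 0.51, Klf3 by -0.27 and Klf6 by -0.20. The Klf6 call (adjusted p = 0.0493) was lost in all 4 fits that left out 1 channel, with values of -0.24 to -0.16, and the same holds for its 1 h value with labels exchanged, which is the same contrast. With labels exchanged 0 differed by limma, against 5.17%, while 4 had an unadjusted p under 0.05 (Klf3, Klf9, Klf10 and Klf13, in the same 2 arrays as the 1 h comparison as deposited). Erythroid markers moved with this comparison: 3 of 3 tested were lower in the array labelled DMSO 12 h than untreated, with a median of -1.09, and their part in the result was not tested. In the transcripts of Tnf, Il1b, Cxcl2 and Il6, inflammatory genes that KLA induces, 4 of 4 rose in each of the 4 macrophage comparisons, with medians of 6.76 and 4.91 in EPM and 5.93 and 3.63 in BMDM. In B cells as deposited 0 of 4 passed at 1 h, with a median of 0.02, and 2 of 4 rose at 12 h, with a median of 0.25. With labels exchanged 1 was higher and 2 were lower at both times, with medians of -0.56 and -0.41.

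**Figure D5:**
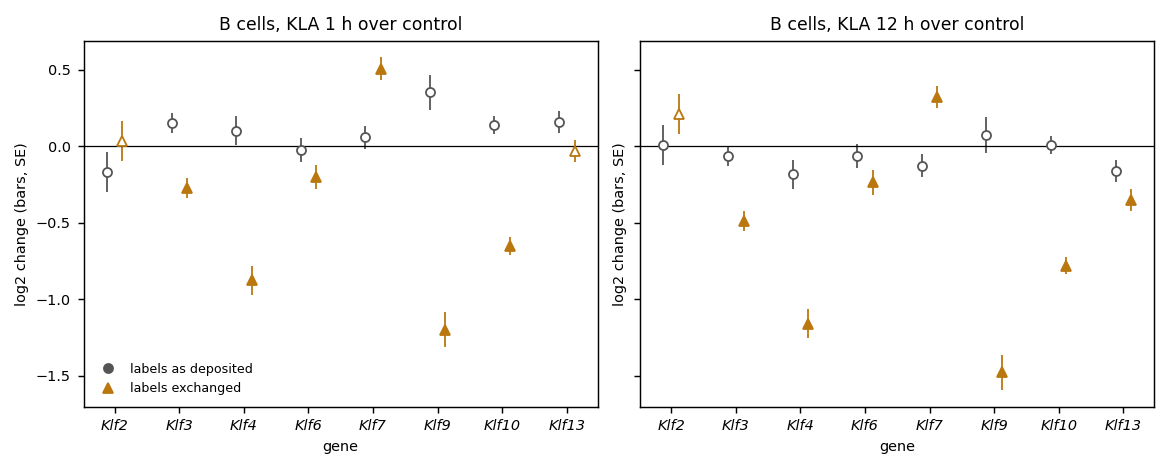
Change of each Kruppel-like factor with KLA in B cells (log2 KLA over control ± SE, vertical axis, by gene on the horizontal axis) at 1 h and 12 h, with labels as deposited (circles) and with the labels of KLA 1 h and DMSO 12 h exchanged (triangles), filled where the adjusted p was under 0.05. No circle is filled, whereas Klf4, Klf9 and Klf10 were lower and Klf7 higher with labels exchanged.

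Set against the mean of both macrophage types, the 1 h response of B cells as deposited differed in 5 members, against 21.9% of all genes, and the 12 h response in 5, against 55.8%. For Klf6 the 1 h difference was -1.59 (adjusted p = 5.82e-10) as deposited and -1.76 exchanged, and for Klf7 -1.28 (adjusted p = 4.68e-09) and -0.83, so both kept their sign. For Klf10 it was 1.27 as deposited and 0.48 exchanged, and for Klf9 0.80 and -0.75, of opposite sign. At 12 h Klf6 differed by -0.83 and -1.004, Klf4 by -0.69 and -1.67 (limma adjusted p = 5.39e-05 and 4.22e-10), and Klf3 by -0.65 and -1.07. With labels exchanged 49.8% of all genes differed at 1 h and 65.8% at 12 h.

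Related genes were counted from lists. For all list counts here and below, the shares of all genes called higher and lower were as follows. EPM had 9.39% and 19.7% at 1 h and 19.6% and 34.3% at 12 h. BMDM had 11% and 17.6% at 1 h and 28.6% and 36.3% at 12 h. B cells as deposited had 2.72% and 2.45% at 1 h and 2.81% and 2.48% at 12 h. With B cell labels exchanged, 47.4% and 49.1% were called in either direction at 1 h and 12 h. Of 9 other Klf genes, 6 were tested, of which 2 were higher and 1 lower in EPM at 1 h, 1 and 0 in EPM at 12 h, 1 and 1 in BMDM at 1 h, 3 and 1 in BMDM at 12 h. Of 9 Sp genes, whose products bind the same GC-rich DNA, 6 were tested, with 0 and 0, 0 and 1, 1 and 2, and 1 and 0 in the same order. In B cells as deposited no other Klf gene passed at either time, and of the Sp genes 0 passed at 1 h and 2 were lower at 12 h. With the B cell labels exchanged, 2 other Klf genes were higher and 2 lower at 1 h, 1 was lower at 12 h, and 3 Sp genes were higher and 1 lower at both times.

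Of 11 cofactors that Kruppel-like factors recruit, all tested, 0 were higher and 2 lower in EPM at 1 h, 3 and 1 in EPM at 12 h, 0 and 1 in BMDM at 1 h, and 5 and 4 at 12 h. Pcaf, an acetyltransferase, rose at 12 h by 1.18 in EPM and 1.55 in BMDM, and Hdac1, a deacetylase of corepressor complexes, by 1.05 in BMDM. Of 10 regulators of Kruppel-like factors, 2 were higher and 7 lower in EPM at 12 h and 2 and 8 in BMDM, where the shares of all genes were 19.6% and 34.3% in EPM and 28.6% and 36.3% in BMDM. The medians of the regulators were -0.49 and -0.61, and at 1 h the counts were 2 and 3 in EPM and 2 and 0 in BMDM. Mef2c and Mef2d, transcription factors that activate Klf2 in endothelium, fell by 1.01 and 1.49 in EPM and by 1.97 and 1.59 in BMDM at 12 h. Wwp1, a ubiquitin ligase that targets Klf2, fell by 1.46 in EPM and 2.25 in BMDM, and Foxo1, an activator of Klf2 in lymphocytes, fell by 1.32 in BMDM. In B cells as deposited, 2 cofactors were lower at 1 h and none passed at 12 h, and no regulator passed at either time. With labels exchanged, cofactors called numbered 2 higher and 2 lower at 1 h, and 2 higher and 3 lower at 12 h. Regulators called numbered 1 higher and 3 lower at 1 h, and 3 higher and 5 lower at 12 h.

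Of 5 genes known as Klf2 targets in lymphocytes, 3 were higher and 1 lower in EPM at 1 h, 3 and 2 at 12 h, 1 and 1 in BMDM at 1 h and 3 and 1 at 12 h. The shares of all genes are those given with the other Klf genes above. Ccr7, a chemokine receptor, rose by 2.03 in EPM at 12 h, and Cdkn1a, a cell cycle inhibitor, by 1.301 at 1 h and 1.01 at 12 h. Edg1, the sphingosine 1-phosphate receptor S1pr1, fell by 1.38 in BMDM at 12 h. In B cells as deposited, 2 were lower at 1 h, and at 12 h 1 was higher and 1 lower, whereas with labels exchanged 2 were higher and 2 lower at both times.

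Genes with a pattern like that of a member were found by Pearson's r of condition means over the 8 macrophage conditions. Each cell type was first centred on its own mean, so r leaves out the level difference between EPM and BMDM. The 1820 genes compared were well above background in all macrophage channels, and their centred means had an SD of at least 0.5. The nearest were Pim1 (0.988), Olfr1131 (0.985) and Nlrp3 (0.971) for Klf6, Ier2 (0.986), Ccrn4l (0.978) and Ifrd1 (0.976) for Klf7, Indol1 (0.940), Rhou (0.927) and Igsf9 (0.926) for Klf3, and 1700017B05Rik (0.822), Smad7 (0.822) and Nab2 (0.818) for Klf10. The conditions share slides and control arrays, and each r is a description over 8 points.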

How the data were processed

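RNA of 12 conditions was hybridised on 12 Agilent 2-colour arrays (24 channels). The authors deposited scanner intensity values, made with Feature Extraction 9.5.3.1 per the submitters' processing notes, together with normalized intensity values of 38516 probes, whose method is not given in the sources used here and which served as an alternative. Groups were taken from the labels.

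Spot mean and median background intensities were corrected with normexp (offset 50) and normalized by loess within arrays and by Aquantile between arrays, and log2 single-channel values were taken in limma 3.58.1 (R 4.3.3). Control spots and 2825 outlier spots were left out, spots of a probe were averaged, and the probe with the highest mean stood for a gene. A gene was tested where 1 condition or more had its probe above background by the scanner's flag in each channel. A model with 1 coefficient per condition (12 residual degrees of freedom) gave moderated tests, adjusted by Benjamini-Hochberg. Likeness, lists and markers were computed from the same values. Promoters came from RefSeq.

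Channels of the same dye deviated together in 66 of 66 pairs of arrays (r 0.279 to 0.689), across cell types as well. The dye was tried as a replicate block. The labels name no pairing, and dye bias of probes and a pairing of replicates cannot be told apart. Other alternatives were another offset, the processed signal, other normalizations, the authors' values, other filters, the mean of probes, array means as samples, fits of the compared cell types alone, centring, a stricter threshold, each channel left out and exchanged B cell labels. In data simulated for EPM KLA 1 h over 17239 genes, 97 of 100 genes changed 2-fold and 100 of 100 changed 4-fold were recovered, with 8 unchanged genes called. The simulated noise was independent between channels, with no array effect and no shared deviation by dye. Errors from those sources are therefore not covered by these counts. All members are described, and a list gene was named where it was called and changed at least 2-fold, at most 4 per list and comparison. The values of 1 list gene are not reported here. The members and lists were chosen with earlier results of these data known. The number of arrays limits the precision.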

Additional observations from a re-analysis of the deposited data

Results flagged for a closer look

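Each value here is a difference on the log2 scale between 2 responses to KLA, and each was picked because the test of that difference passed an adjusted p of 0.05 in limma. Between EPM and BMDM, Klf3 differed by 0.34 at 1 h. At 12 h the response in EPM minus that in BMDM was -1.02 for Klf3, -0.63 for Klf4, -1.11 for Klf6, -0.74 for Klf7, -0.45 for Klf10 and -0.42 for Klf13.

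Between times, the 12 h minus the 1 h response in EPM was 0.38 for Klf4, -1.19 for Klf6, -1.61 for Klf7, 0.68 for Klf10 and -0.32 for Klf13. In BMDM it was 1.26 for Klf3, 0.73 for Klf4, -0.39 for Klf6, -0.89 for Klf7 and 1.39 for Klf10.

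The response of B cells, with labels as deposited, minus the mean of both macrophage types was -1.59 for Klf6, -1.28 for Klf7, 0.80 for Klf9, 1.27 for Klf10 and 0.34 for Klf13 at 1 h. At 12 h it was 0.41 for Klf2, -0.65 for Klf3, -0.69 for Klf4, -0.83 for Klf6 and 0.79 for Klf9. The call for Klf2 was lost in 7 of 12 fits that left out 1 channel, with values from 0.29 to 0.53 over the 12. Without normalization between arrays its value was 0.12. These Klf2 values are those of A_52_P442031. The other Klf2 probe, A_51_P144264, went from 15.52 in DMSO to 15.31 in KLA at 12 h in B cells. It went from 10.53 to 10.46 in EPM and from 11.83 to 11.43 in BMDM. With labels exchanged the difference of Klf9 was -0.75 at 1 h and -0.76 at 12 h.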

How the results depend on the processing

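Member counts stood within 1.5 times of those reported except as follows, and the cause was not tested unless stated. With array means as samples, 1 member passed in each of the 4 macrophage KLA comparisons and in EPM over BMDM, 3 in B cells over BMDM, 4 in B cells over EPM, 0 in EPM minus BMDM at 1 h and at 12 h, 2 in EPM 12 h minus 1 h, 0 in BMDM 12 h minus 1 h, and 0 and 1 in B cells minus macrophages at 1 h and 12 h. That fit has fewer samples and shared controls. With a 2-fold change asked as well, the counts were 2 for EPM 1 h, 0 for EPM 12 h, 2 for BMDM 12 h, 1 for early EPM over BMDM, 2 at 12 h, 3 for B cells over BMDM, 1, 2 and 1 for culture of EPM, BMDM and B cells, 0 and 2 for EPM minus BMDM at 1 h and 12 h, 2 for 12 h minus 1 h in EPM and in BMDM, and 3 and 0 for B cells minus macrophages. For EPM minus BMDM at 1 h, the mean of probes gave 5, centring 2, the compared cell types alone 2, a threshold of 0.01 0, and leaving out 1 channel 0 to 1. For EPM 12 h minus 1 h a threshold of 0.01 gave 3 and leaving out 1 channel 3 to 5 (3 without the Cy3 channel of KLA 12 h). The mean of probes gave 6 in BMDM at 1 h, and no normalization between arrays gave 3 in the 12 h controls and 3 in EPM minus BMDM at 12 h.

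For B cells at 1 h, 12 h and in culture, the authors' values gave 5, 6 and 0 members and exchanged labels 6, 7 and 0. The signs that turned with the authors' values and with exchanged labels were, in that order, at 1 h Klf3 (-0.28, -0.27), Klf4 (-0.81, -0.87), Klf9 (-1.21, -1.20) and Klf10 (-0.59, -0.65), at 12 h Klf7 (0.36, 0.32), Klf9 (-1.51, -1.48) and Klf10 (-0.68, -0.78), in culture Klf3 (0.11, 0.16), Klf4 (0.10, 0.10), Klf9 (0.38, 0.36) and Klf10 (0.13, 0.14), against macrophages at 1 h Klf3 (-0.32, -0.27), Klf4 (-0.87, -0.83) and Klf9 (-0.85, -0.75), and at 12 h Klf9 (-0.83, -0.76) and Klf10 (-0.70, -0.69), with Klf7 at 0.24 for exchanged labels alone. For probe A_51_P144264 of Klf2 the authors' values gave 0.33 in B cells at 1 h.

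Other reversals came from the mean of probes (Klf2 1.08 in EPM at 1 h, 0.43 in BMDM culture and 0.65 in EPM minus BMDM at 1 h, Klf3 -0.17 in the 12 h controls), from no normalization between arrays (Klf10 -0.07 in BMDM at 12 h, Klf7 -0.26 in B cells over BMDM) and from array means (Klf10 -0.65 in BMDM at 12 h, 0.03 in EPM minus BMDM at 12 h and -0.17 in BMDM 12 h minus 1 h, Klf4 -0.74 and -0.90 in 12 h minus 1 h of EPM and BMDM, Klf7 0.23 in B cells over EPM).

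With the dye as a replicate block, the dye term added 14 member calls and took none, with 3 members in EPM minus BMDM at 1 h and 1 in B cells at 1 h (Klf9, 0.36, adjusted p = 0.0264). Calls it added and not given above were Klf2 in EPM minus BMDM at 12 h (0.013) and in EPM 12 h minus 1 h (0.0419), Klf9 in EPM minus BMDM at 12 h (0.032) and Klf7 in B cells minus macrophages at 12 h (0.0251).

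Counts of all genes called moved most with array means, from 5049 to 165 in EPM and 4956 to 99 in BMDM at 1 h, 9349 to 2006 and 11265 to 3653 at 12 h, 897 to 14 and 918 to 1 in B cells, 10029 to 3403 in EPM over BMDM, 1658 to 0 and 8291 to 107 in EPM minus BMDM, 7582 to 1290 and 9436 to 1997 in 12 h minus 1 h, and 3804 to 57 and 9668 to 1304 in B cells minus macrophages. Exchanged labels gave 8218, 8526 and 897 for B cells at 1 h, 12 h and in culture and 8633 against macrophages at 1 h, and the authors' values 7178, 7582, 430 and 7715. The dye block gave 2406 and 1937 in B cells, 5152 in EPM culture (from 3312), 3102 in EPM minus BMDM and 5816 in B cells minus macrophages at 1 h. A filter on all channels gave 429, 386, 1983 and 770 for B cells at 1 h and 12 h, EPM culture and EPM minus BMDM at 1 h, and a threshold of 0.01 gave 408, 532, 2062 and 1010, with 3288 in BMDM at 1 h, 2534 in BMDM culture (from 4026) and 2421 in B cells minus macrophages at 1 h. The compared cell types alone gave 392 and 533 in B cells, and no normalization between arrays 1474 at 1 h.

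The split of higher and lower calls moved by over 10 points with centring in EPM at 1 h, from 1629 and 3420 to 2085 and 2575. Without normalization between arrays it moved from 3395 and 5954 to 4244 and 4906 in EPM at 12 h, from 4962 and 6303 to 3431 and 8070 in BMDM at 12 h, from 472 and 425 to 232 and 1242 in B cells at 1 h, from 4939 and 5090 to 4080 and 6626 in EPM over BMDM, from 6496 and 6788 to 4717 and 9339 in B cells over BMDM, from 6686 and 6699 to 5386 and 8313 in B cells over EPM, from 4020 and 4271 to 7030 and 2142 in EPM minus BMDM at 12 h, from 3368 and 4214 to 4503 and 3346 and from 4251 and 5185 to 3228 and 6545 in 12 h minus 1 h of EPM and BMDM, and from 2358 and 1446 to 1734 and 1632 in B cells minus macrophages at 1 h (1707 and 1852 centred).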
